A study of Homo sapiens with 24 samples.

Results

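SNAI1, SNAI2, TWIST1, TWIST2, ZEB1 and ZEB2, the 6 transcription factors best known for driving the epithelial-mesenchymal transition (EMT), were followed together with the mesenchymal markers VIM and CDH2. Every Illumina probe annotated to 1 of these 8 symbols was taken, which gave 11 of the 47231 probes of the array. Of the 11 probes, 5 lay above background on all 24 arrays: both probes of SNAI2, the probe of TWIST1, the probe of CDH2 and 1 of the 2 probes of VIM. SNAI1, TWIST2, ZEB1 and ZEB2 had no usable signal, so 4 of the 8 genes entered the tests, which covered 11029 of the 20045 genes with a named probe.

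The arrays came from HB2, an immortalized human mammary epithelial line grown with serum, insulin and hydrocortisone. All cells were transfected with siRNA at 50 nM using DharmaFECT 3 and RNA was taken after 48 h. A control siRNA made up 1 group, and the other 3 received an siRNA that targets the long noncoding RNA GNG12-AS1 in its exon 1, 7 or 9, with 6 arrays in each group. By the sample titles each replicate number is 1 experiment with an array of every group, and the labels name no further siRNA for any exon, so an effect of losing the target and an effect of the siRNA's own sequence cannot be told apart. No probe was named for GNG12-AS1 (0 in the annotation), so its knockdown could not be read from the arrays.

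EMT factors are DNA-binding proteins that bind E-box motifs and can repress epithelial genes such as CDH1, which encodes the adhesion molecule E-cadherin. SNAI1 and SNAI2 (Slug) and ZEB1 and ZEB2 are zinc-finger proteins, and TWIST1 and TWIST2 are basic helix-loop-helix (bHLH) proteins that pair with E proteins. VIM encodes the intermediate filament vimentin, and CDH2 encodes N-cadherin, which replaces or joins E-cadherin in cells that undergo EMT. SNAI2 also has a known role in basal and stem-like cells of the mammary gland.

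Since the factors bind E-boxes, the 250 bases before the annotated starts of CDH2 and VIM, the markers with signal that had an entry in the RefSeq promoter table (GRCh38.p14), are shown to let the motif be looked up in them. CDH2 has 2 starts, with windows at chr18:28177131-28177380 and chr18:28036642-28036891 on the minus strand, and VIM has 1, with its window at chr10:17227991-17228240 on the plus strand. The motif searched was CANNTG, which reads the same on both strands, and capitals mark a match.
CDH2 first window: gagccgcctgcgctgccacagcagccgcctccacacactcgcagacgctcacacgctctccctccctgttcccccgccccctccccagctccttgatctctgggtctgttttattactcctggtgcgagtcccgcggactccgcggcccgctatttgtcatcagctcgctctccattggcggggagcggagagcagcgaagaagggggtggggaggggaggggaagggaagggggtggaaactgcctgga
CDH2 second window: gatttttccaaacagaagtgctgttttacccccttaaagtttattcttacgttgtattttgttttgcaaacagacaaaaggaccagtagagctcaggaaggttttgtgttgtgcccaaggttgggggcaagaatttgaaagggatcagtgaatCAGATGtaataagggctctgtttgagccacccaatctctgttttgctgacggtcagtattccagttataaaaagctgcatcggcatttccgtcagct
VIM window: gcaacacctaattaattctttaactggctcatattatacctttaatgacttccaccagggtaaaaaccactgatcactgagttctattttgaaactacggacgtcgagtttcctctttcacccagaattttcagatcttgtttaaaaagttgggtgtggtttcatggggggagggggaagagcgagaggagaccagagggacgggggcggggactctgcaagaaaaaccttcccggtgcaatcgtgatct
The second CDH2 window held 1 E-box, CAGATG, which begins 97 bases before that start, and the other CDH2 window and the VIM window held 0. E-boxes were present in 61.8% of the 35116 windows of this length in the table, and the forms CAGGTG or CACCTG in 17.5%. CAGATG is neither CAGGTG nor CACCTG, and none of the windows shown held either form. These matches describe the letters of the windows, and binding was not measured. SNAI1 and TWIST1 are named here without sequence, and SNAI2 is reported by its levels alone.

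**Figure D1:**
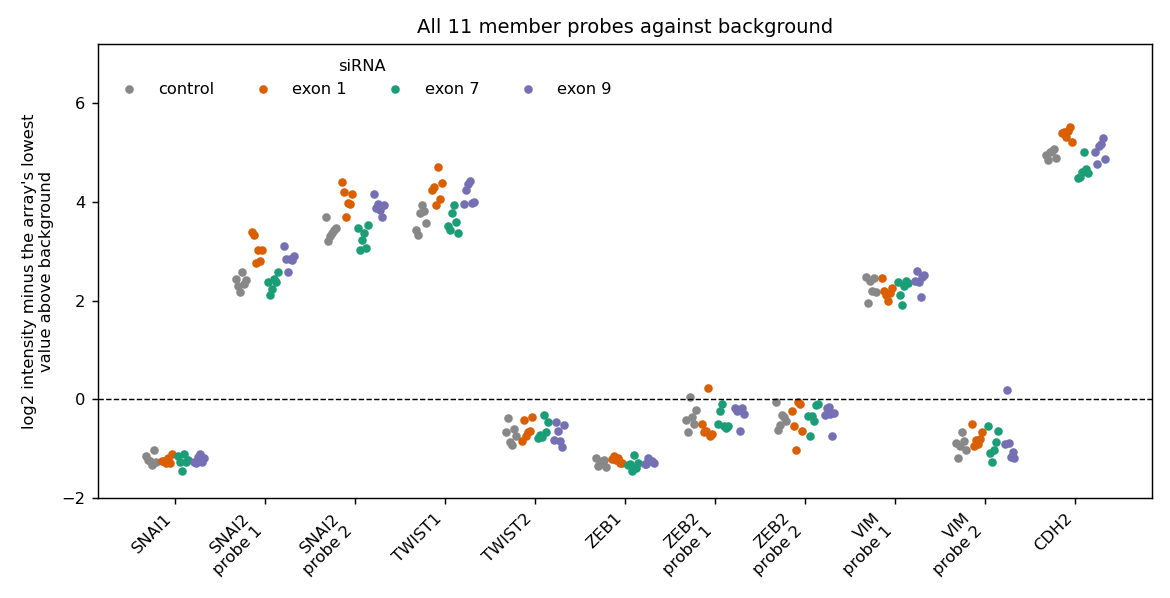
Level of the 11 member probes on each of the 24 arrays, as log2 normalized intensity minus that array's lowest value above background, with points coloured by siRNA and the dashed line at 0 marking background. Both SNAI2 probes, TWIST1, CDH2 and the first VIM probe lie above the line on every array, whereas the remaining 6 probes lie below it on all but at most 2 arrays.

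SNAI2 was higher under the exon 1 and exon 9 siRNAs than under control, and its level under the exon 7 siRNA stayed within the range of control or just below it. On the brighter of its probes, the log2 normalized intensity in control ran from 9.56 through a median of 9.73 to 10.04. Under exon 1 it ran from 10.17 through 10.40 to 10.77. Under exon 9 it ran from 10.07 through 10.25 to 10.55. All 12 arrays of these siRNAs therefore lay above all 6 control arrays. Under exon 7 the values were 9.51, 9.70 and 9.89 at the lowest, median and highest array, so this group overlapped control.

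The log2 difference of SNAI2 from control was 0.66 ± 0.10 (standard error of the model, n = 6 arrays per group) under exon 1, a 1.59-fold rise (limma, adjusted p = 0.000104). Under exon 9 the difference was 0.50 ± 0.10, a 1.42-fold rise (adjusted p = 0.00411). Both rises were seen in all 6 experiments, with differences within an experiment of 0.47 to 0.99 under exon 1 and 0.35 to 0.68 under exon 9. Under exon 7 the difference was -0.06 ± 0.10 (adjusted p = 0.898; 95% interval -0.27 to 0.15), and SNAI2 was higher than control in 2 of 6 experiments. The comparisons with control all use the same 6 control arrays and are not independent of each other.

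The second SNAI2 probe gave like values in a fit over all 19395 probes above background. Its log2 intensity was 8.57 to 8.96 in control, 9.18 to 9.74 under exon 1, 8.59 to 8.93 under exon 7 and 8.93 to 9.50 under exon 9, so only the exon 1 arrays cleared the control range. Differences from control were 0.67 ± 0.10 under exon 1 (adjusted p = 0.000136), 0.04 ± 0.10 under exon 7 (adjusted p = 0.972) and 0.48 ± 0.10 under exon 9 (adjusted p = 0.0106). In that fit limma called 6.96%, 1.17% and 2.34% of probes in these 3 comparisons.

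Ordered by mean, SNAI2 stood lowest under exon 7, then control, exon 9 and exon 1. The neighbours exon 7 and control did not pass the test, nor did exon 9 and exon 1, which differed by 0.16 ± 0.10 (adjusted p = 0.399; interval -0.05 to 0.37). Exon 1 exceeded exon 7 by 0.73 ± 0.10 (1.66-fold; adjusted p = 4.15e-05) and exon 7 lay below exon 9 by 0.57 ± 0.10 (log2 difference -0.57; adjusted p = 0.00155). Neither of the latter pairs of groups overlapped, which held for 5.08% of all genes between exon 1 and exon 7 and for 3.25% between exon 7 and exon 9.

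SNAI1, the closest relative of SNAI2 among the members, had 1 probe, above background on 0 of 24 arrays. Its log2 intensity lay between 5.05 and 5.28 in every group. No difference in SNAI1 was detectable at this signal.

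TWIST1 was higher under the same siRNAs as SNAI2. The log2 intensity of its probe in control was 9.70 at the lowest, 10.03 at the median and 10.31 at the highest array. Under exon 1 these values were 10.39, 10.62 and 11.03. Under exon 9 they were 10.33, 10.48 and 10.76. The 12 arrays of exon 1 and exon 9 again lay above all control arrays, narrowly so for exon 9. The exon 7 values, 9.73, 9.98 and 10.28, lay inside the control range.

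TWIST1 rose 1.55-fold under exon 1 (log2 difference 0.63 ± 0.12; limma, adjusted p = 0.00136) and 1.43-fold under exon 9 (0.52 ± 0.12; adjusted p = 0.0156), each in 6 of 6 experiments. Within an experiment the rise ran from 0.22 to 0.95 under exon 1 and from 0.23 to 0.90 under exon 9. Exon 7 differed from control by 0.02 ± 0.12 (adjusted p = 0.978; interval -0.23 to 0.27). The call under exon 9 was lost without experiment 1 (adjusted p = 0.0745) and without experiment 3 (adjusted p = 0.106), which are replicates 1 and 2. With all arrays and the replicate number as a block it was kept (0.52 ± 0.09; limma, adjusted p = 0.00129), where 9.24% of genes were called.

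Exon 1 exceeded exon 7 in TWIST1 by 0.61 ± 0.12 (adjusted p = 0.00177), and exon 7 lay below exon 9 by 0.50 ± 0.12 (log2 difference -0.50; adjusted p = 0.0191). The latter call was lost when experiment 1, 3, 11 or 5 was left out (replicates 1, 2, 5 and 6; adjusted p = 0.0653, 0.0869, 0.0525 and 0.0717). With all arrays and the replicate number as a block it was kept (-0.50 ± 0.09; limma, adjusted p = 0.00191). Exon 1 and exon 9 differed by 0.11 ± 0.12 (adjusted p = 0.666; interval -0.14 to 0.37), which did not pass the test. By mean the order was control, exon 7, exon 9 and exon 1, in which neither the lower pair nor the upper pair passed the test. TWIST2, a paralog with a like bHLH domain, had 1 probe, above background on 0 of 24 arrays, with log2 intensities of 5.42 to 5.98.

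The ZEB factors could not be measured. ZEB1 had 1 probe, above background on 0 of 24 arrays at log2 intensities of 4.99 to 5.24. Of the 2 ZEB2 probes, 1 was above background on 2 of 24 arrays, control replicate 3 at 6.43 and exon 1 replicate 4 at 6.54, and the other on 0. Their groups overlapped throughout, and a low signal of a probe does not show that the transcript is absent.

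**Figure D2:**
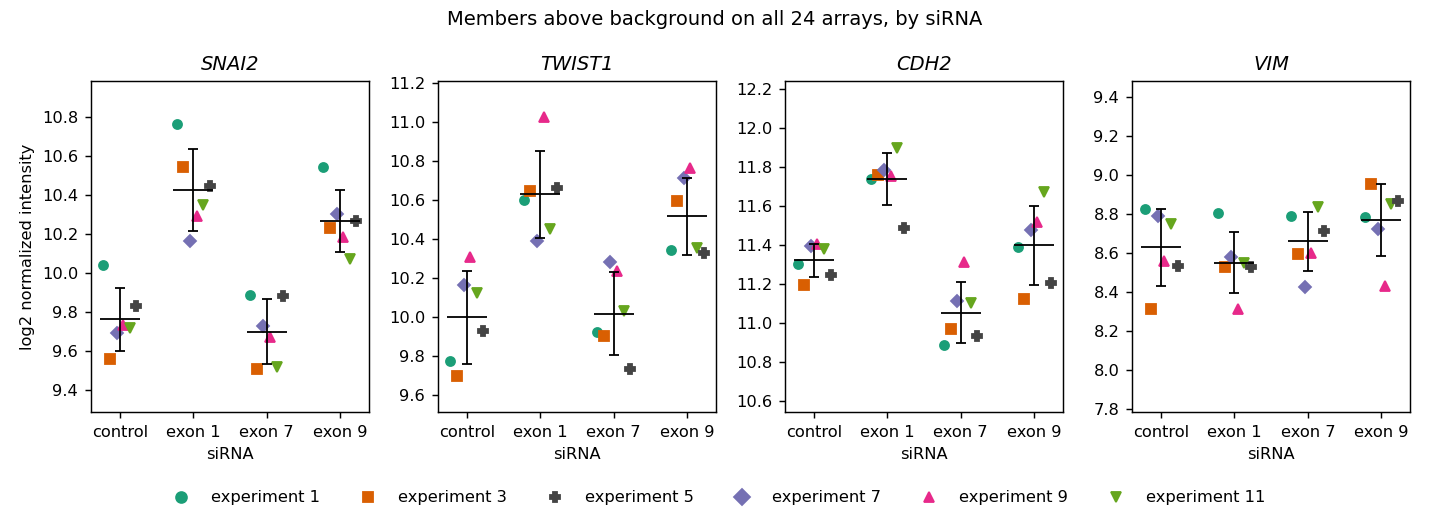
Log2 normalized intensity of SNAI2, TWIST1, CDH2 and VIM on each of the 24 arrays by siRNA, with 1 symbol per experiment, a line at the group mean and bars of 1 standard deviation (n = 6 arrays). For SNAI2 and TWIST1 all exon 1 and exon 9 arrays lie above the control arrays, for CDH2 only the exon 1 arrays do, and for VIM all groups overlap.

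CDH2, the cadherin gained in EMT, rose under the exon 1 siRNA. In control its log2 intensity was 11.20 at the lowest, 11.34 at the median and 11.41 at the highest array. Under exon 1 the values were 11.49, 11.76 and 11.90. All 6 exon 1 arrays lay above the control arrays, and the difference was 0.42 ± 0.09 (1.34-fold; limma, adjusted p = 0.00361), with rises of 0.24 to 0.56 in all 6 experiments. Under exon 9 the values were 11.12, 11.44 and 11.67, which overlapped control, and the difference of 0.08 ± 0.09 did not pass the test (adjusted p = 0.782; interval -0.11 to 0.26).

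Under exon 7 CDH2 had the values 10.89, 11.04 and 11.32, so 5 of the 6 arrays lay below the control range and 1 inside it. It was lower than control in 6 of 6 experiments, by differences of -0.42 to -0.09, with a mean of -0.27 ± 0.09 that did not pass the test without a term for the experiment (adjusted p = 0.158). With the replicate number as a block it passed (-0.27 ± 0.06, adjusted p = 0.0177), where 5.26% of genes were called in that comparison.

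The order of CDH2 was therefore exon 7, control, exon 9 and exon 1. Exon 1 exceeded exon 7 by 0.69 ± 0.09 (1.61-fold; adjusted p = 2.2e-05), with no overlap of the groups. Exon 1 also exceeded exon 9, by 0.34 ± 0.09 (adjusted p = 0.0189), in 6 of 6 experiments and with overlapping groups. This call was lost under median scaling (adjusted p = 0.0637), with the arrays of the 2 groups alone (0.0663), without experiment 1, 3 or 7 (adjusted p = 0.0817, 0.0960 and 0.0526) and without exon 9 replicate 6 (0.0517). With all arrays and the replicate number as a block it was kept (0.34 ± 0.06; limma, adjusted p = 0.00102).

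Exon 7 lay below exon 9 in CDH2 by 0.35 ± 0.09 (log2 difference -0.35; adjusted p = 0.0269), also in 6 of 6 experiments with overlapping groups. That call was lost without exon 7 replicate 1, 2 or 6 and without exon 9 replicate 1, 3, 4 or 5 (adjusted p of 0.0513 to 0.0745), without experiment 1, 7 or 11 (0.155, 0.0877 and 0.120), under median scaling (0.0509) and with the 2 groups alone (0.104). With all arrays and the replicate number as a block it passed (-0.35 ± 0.06; limma, adjusted p = 0.00170). The size of the difference stayed between -0.46 and -0.23 in all of the settings run.

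VIM passed no test between any of the groups. On its brighter probe the log2 intensity ran from 8.31 through 8.65 to 8.83 in control and from 8.31 through 8.54 to 8.81 under exon 1. It ran from 8.42 through 8.66 to 8.83 under exon 7 and from 8.43 through 8.82 to 8.95 under exon 9. All groups overlapped. Differences from control were -0.08 ± 0.10 under exon 1 (limma, adjusted p = 0.713; interval -0.29 to 0.13), 0.03 ± 0.10 under exon 7 (adjusted p = 0.957; interval -0.18 to 0.24) and 0.14 ± 0.10 under exon 9 (adjusted p = 0.579; interval -0.07 to 0.35).

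The widest contrast in VIM was exon 1 below exon 9, at -0.22 ± 0.10 (adjusted p = 0.210), in 5 of 6 experiments. The second VIM probe was above background on 1 of 24 arrays, exon 9 replicate 2 at 6.55, and gave no usable comparison. The VIM values therefore rest on a single probe, and its 3 intervals against control lie below the rises measured for SNAI2 and TWIST1 under exon 1. By mean the order was exon 1, control, exon 7 and exon 9, with no pair of groups past the threshold.

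CDH1, the epithelial partner of the cadherin switch, was above background on all 24 arrays and passed no test against control. Its differences were 0.09 ± 0.14 under exon 1 (adjusted p = 0.774), -0.13 ± 0.14 under exon 7 (adjusted p = 0.821) and -0.15 ± 0.14 under exon 9 (adjusted p = 0.701). The highest interval bound was 0.37 and the lowest was -0.43. CDH2 rose under exon 1 without a detectable fall of CDH1 on the same arrays.

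**Figure D3:**
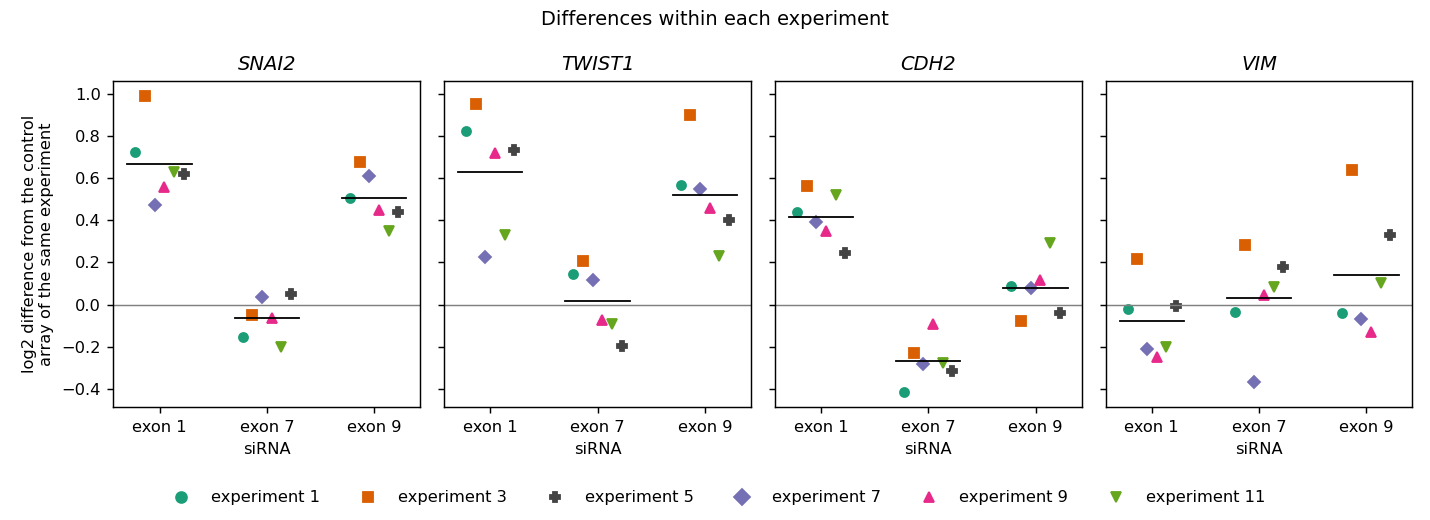
Log2 difference of each siRNA array from the control array of the same experiment for SNAI2, TWIST1, CDH2 and VIM, with 1 symbol per experiment and a line at the mean. All exon 1 differences of SNAI2, TWIST1 and CDH2 lie above 0 and all exon 7 differences of CDH2 lie below it, while VIM scatters on both sides.

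Counted over the 4 genes with signal, 3 were higher under the exon 1 siRNA (SNAI2, TWIST1 and CDH2), where 10.0% of all genes were called and 5.18% were called higher. Under exon 9, 2 were higher (SNAI2 and TWIST1), where 3.63% were called and 1.96% were called higher. Under exon 7 limma called 0, where 1.92% of genes were called, and 1 of the 4 (CDH2) had an unadjusted p below 0.05. These counts come from the fit without a term for the experiment. With the replicate number as a block limma called CDH2 lower under exon 7 (adjusted p = 0.0177), where 5.26% of genes were called. Groups that did not overlap control were found in 4.46% of genes under exon 1 and in 2.94% under exon 9. With only 4 genes these counts describe the members and no more.

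Between siRNAs, 3 of the 4 differed between exon 1 and exon 7 (all higher under exon 1; 11.5% of genes called and 5.99% higher), the same 3 differed between exon 7 and exon 9 (all lower under exon 7; 4.20% called and 1.98% lower) and 1, CDH2, differed between exon 1 and exon 9 (higher under exon 1; 8.35% called and 4.29% higher). By these calls SNAI2 and TWIST1 differed between exon 7 and both other siRNAs, and CDH2 differed between all 3. The exon 9 arrays overlapped those of exon 1 and of exon 7 in CDH2. Those CDH2 calls, and the TWIST1 call between exon 7 and exon 9, were lost in some of the settings given above. Rises of SNAI2 and TWIST1 and overlapping VIM values were found on the same arrays.

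**Figure D4:**
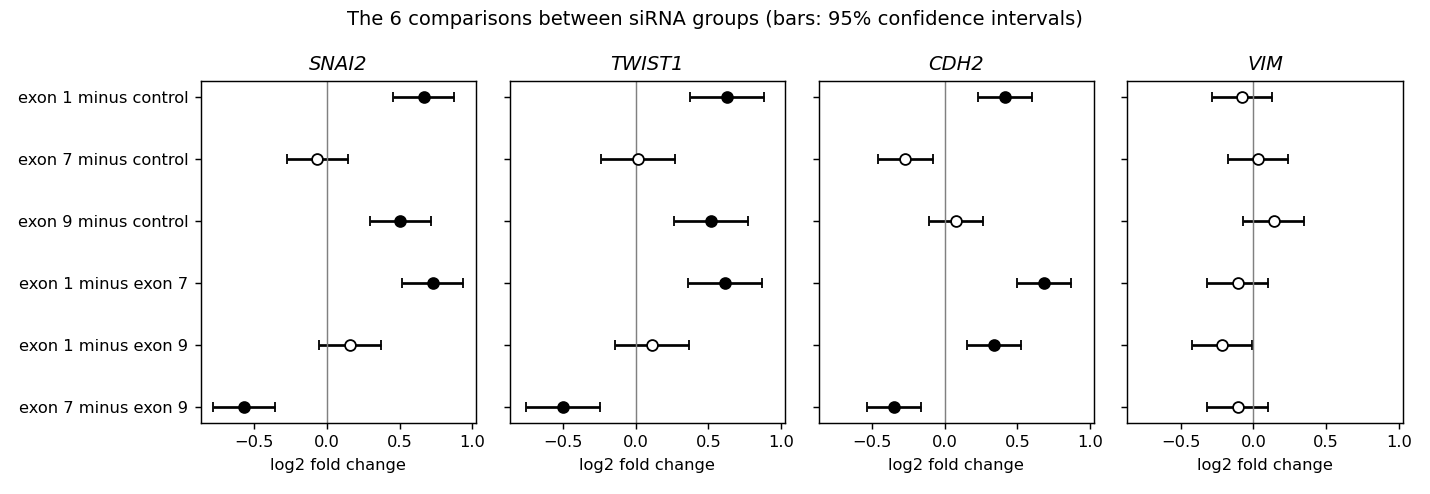
Log2 difference with its 95% interval for SNAI2, TWIST1, CDH2 and VIM in the 6 comparisons between siRNA groups, with filled points for those past an adjusted p of 0.05. SNAI2 and TWIST1 share the same 4 filled comparisons, CDH2 has filled points in 4 and VIM in 0.

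The deposited table lists its arrays in 2 sets of 12 columns, with every group represented by 3 arrays in each, and the differences were also taken within the sets. Under exon 1 SNAI2 differed from control by 0.83 (limma, adjusted p = 0.00798) in the first set and 0.50 (0.167) in the second, TWIST1 by 0.72 (0.0665) and 0.54 (0.150), and CDH2 by 0.33 (0.222) and 0.50 (0.0852). Under exon 9 SNAI2 differed by 0.60 (0.0872) and 0.41 (0.397) and TWIST1 by 0.50 (0.302) and 0.53 (0.260). The fall of CDH2 under exon 7 was -0.29 in the first set and -0.24 in the second (adjusted p = 0.539 and 0.610). The direction of each of these differences was the same in both sets, and 1 of them passed the threshold within a set. Exon 1 exceeded exon 7 by 0.79 (adjusted p = 0.0135) and 0.67 (0.0682) in SNAI2, by 0.68 (0.0668) and 0.54 (0.141) in TWIST1 and by 0.63 (0.0248) and 0.74 (0.0234) in CDH2. Exon 7 minus exon 9 was -0.56 and -0.58 in SNAI2, -0.47 and -0.53 in TWIST1 and -0.23 and -0.46 in CDH2, and exon 1 minus exon 9 was 0.39 and 0.29 in CDH2, with adjusted p of 0.140 or more in each set.

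Across the 24 arrays SNAI2 and TWIST1 correlated at a Pearson r of 0.69, SNAI2 and CDH2 at 0.63 and TWIST1 and CDH2 at 0.68, all of which include the differences between siRNAs. With the group means removed these values were -0.12, -0.24 and 0.31. VIM correlated with SNAI2, TWIST1 and CDH2 at 0.12, -0.18 and -0.24. The points share arrays and experiments, and the correlations are descriptions.

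The tested genes whose values over the 24 arrays were most like SNAI2 were SGK1, a glucocorticoid-induced kinase (r = 0.85), ETS2, an ETS-family transcription factor (0.84), and TARDBP, an RNA-binding protein (0.84). Those most like TWIST1 were TAGLN, the actin-binding protein transgelin (0.89), BTG1, an antiproliferative factor (0.86), and GSKIP, a protein that binds the kinase GSK3B (0.85). Those most like CDH2 were SUB1, a transcriptional coactivator (0.91), NRG1, an EGF-family ligand (0.86), and GSKIP (0.84). With experiment means removed, the 9 values ran from 0.84 (TWIST1 and GSKIP) to 0.95 (SNAI2 and SGK1). Both kinds of value include the differences between siRNAs, and for these genes the correlations were not taken with the group means removed.

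Mesenchymal genes were the list with the most calls under exon 1. Of 29 listed genes 19 were tested, and under exon 1 limma called 8 higher and 0 lower, with a median log2 difference of 0.25 beside 0.01 over all genes, of which 10.0% were called and 5.18% called higher. TAGLN rose by 1.04 ± 0.20 (adjusted p = 0.00134; 0.81 on its other probe), and COL5A1, a fibrillar collagen chain, rose by 0.50 ± 0.10 (adjusted p = 0.00120). For LOX, which crosslinks collagen, the bound was 1.88-fold above control (limma, adjusted p = 3.08e-05, with 2 of 6 control arrays above background). For COL5A2 the bound was 1.33-fold (limma, adjusted p = 0.00291, with 0 of 6 control and 5 of 6 exon 1 arrays above background). Such a bound compares the brighter group's mean with the mean, over the dim group's arrays, of the larger of the probe's own value and that array's lowest value above background. A bound concerns the means alone and carries no sampling error, and the adjusted p beside it comes from the fit of the measured values. For LOX that fit gave a log2 difference of 0.98 with a 95% interval of 0.70 to 1.26, beside a log2 bound of 0.91. The others called were ACTA2, COL6A1, SPARC and ITGA5, at 0.40 to 0.56. LOX and COL5A2 count among the 8 but were not tested under a stricter detection filter, so the count depends on the filter.

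Under exon 9, 1 of the 19 was called higher, LOX with a bound of 1.48-fold (limma, adjusted p = 0.00735, and 0.0514 without experiment 5). The median was 0.15, and 6 of the 19 had an unadjusted p below 0.05 (9 under exon 1 and 2 under exon 7). TAGLN was not called there (0.71 ± 0.20; adjusted p = 0.0525). Under exon 7, 0 were called higher and 1 lower, the surface glycoprotein THY1 at -0.38 ± 0.09 (adjusted p = 0.0311), and the median was 0.07. Over all genes 3.63% were called under exon 9 and 1.92% under exon 7. The THY1 call was lost when 1 of 7 arrays was omitted, namely replicates 1, 2 and 5 of control and 2, 4, 5 and 6 of exon 7 (adjusted p up to 0.0895). It was also lost without any 1 experiment but experiment 7 (up to 0.141), under median scaling (0.0788) and with the 2 groups alone (0.0572). With the replicate block the counts were 8 and 0 under exon 1, 4 and 0 under exon 9 and 0 and 2 under exon 7, where 18.7%, 9.24% and 5.26% of all genes were called, and without experiment 3 they were 6 and 0, 1 and 0, and 0 and 0.

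Fibroblast markers share 10 genes with the mesenchymal list, 6 of them tested, and none of these 6 was called under exon 1. The summed fibroblast marker level (log2) was 11.63 to 11.91 in control, 11.75 to 12.22 under exon 1, 11.32 to 11.60 under exon 7 and 11.47 to 11.72 under exon 9. Of the 11 markers 7 were above background on at least 6 arrays and 2, FAP and THY1, on all 24, while PDGFRA and PDGFRB were on 0. All arrays came from the HB2 line, and bulk RNA does not distinguish fewer cells that express a marker from less RNA per cell. The part of these markers in the results was not tested.

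Epithelial genes repressed by the EMT factors did not move 1 way across the 3 siRNAs, and under exon 9 their median lay below 0 with 0 called higher. At an unadjusted p below 0.05 were 6, 3 and 9 of the 26 genes tested under exons 1, 7 and 9. Of 26 tested of 28 listed, 3 were higher and 2 lower under exon 1 (median 0.03), 2 higher and 0 lower under exon 7 (-0.04) and 0 higher and 1 lower under exon 9 (-0.14), where 10.0%, 1.92% and 3.63% of all genes were called. CLDN1, a tight-junction claudin, rose under both exon 1 (1.08 ± 0.13, adjusted p = 2.65e-06) and exon 7 (0.76 ± 0.13, adjusted p = 0.000872). CDS1, an enzyme of phospholipid synthesis, gave 0.67 ± 0.14 with exon 1 (adjusted p = 0.00225) and 0.53 ± 0.14 with exon 7 (adjusted p = 0.0430; lost without any 1 of 10 of the 12 arrays, all but control replicate 2 and exon 7 replicate 3, with adjusted p up to 0.125). The CDS1 call under exon 7 was also lost without any 1 experiment but experiment 7 (up to 0.175), under median scaling (0.178), with no detection filter (0.0685) and with the 2 groups alone (0.0920).

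The desmosomal protein gene PKP2 fell by 0.63 ± 0.11 under exon 1 (log2 difference -0.63; adjusted p = 0.000597). MAL2, which acts in apical transport, fell by 0.38 ± 0.08 under exon 9 (-0.38; adjusted p = 0.00683; 0.0539 without experiment 11). The tight-junction gene MARVELD3 gave -0.42 ± 0.07 under exon 1 on its brightest probe (adjusted p = 0.000138) but -0.01 and 0.24 on its other probes, and the mean of its probes did not pass (adjusted p = 0.733). With the replicate block the list gave 4 higher and 2 lower under exon 1, 2 and 0 under exon 7 and 1 and 3 under exon 9.

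Factors that work beside the members were counted against the same shares of all genes, 10.0%, 1.92% and 3.63% under exons 1, 7 and 9, and lists of this size allow no reading from counts near them. Median log2 differences under exons 1, 7 and 9 were -0.0008, -0.03 and -0.21 for epithelial regulators and 0.12, -0.08 and 0.16 for other EMT transcription factors. None of the 9 tested epithelial regulators such as GATA3 and none of the 5 tested other EMT transcription factors was called against control by limma (0 of each under all 3 siRNAs). At an unadjusted p below 0.05 these were 0, 0 and 1 of the former and 2, 1 and 3 of the latter under exons 1, 7 and 9, and with the replicate block limma called 1, 1 and 2 of the former, all lower, and 1, 1 and 0 of the latter. Among 7 bHLH partners and inhibitors 1 was called, ID3, an inhibitor of bHLH dimers, at 0.35 ± 0.09 under exon 1 (adjusted p = 0.0122; 0.0665 under median scaling and 0.0719 without experiment 5). Among 28 corepressors and stability factors 1 was higher and 1 lower under exon 1 and 0 under exons 7 and 9, where 3 and 7 had an unadjusted p below 0.05. With the replicate block the corepressor list gave 2 higher and 1 lower under exon 1, 1 higher under exon 7 and 2 higher and 1 lower under exon 9. CTBP2, a corepressor of ZEB factors, had a difference of -0.56 ± 0.14 (adjusted p = 0.0126), with -0.54 and -0.01 on its other probes, and lost the call without experiment 1, 3 or 5 (adjusted p = 0.0755, 0.0902 and 0.0627).

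KAT2B, an acetyltransferase, had a difference of 0.60 ± 0.18 under exon 1 (adjusted p = 0.0368). Its call was lost without any 1 of 9 of the 12 arrays, all but control replicate 2 and exon 1 replicates 3 and 6 (adjusted p up to 0.108). It was also lost without any 1 experiment but experiment 3 (up to 0.111), under median scaling (0.0624), with no detection filter (0.0623) and with the 2 groups alone (0.0822). Of 8 classical cadherin and catenin genes tested 1 was called in each comparison with control. This was PTPN1, a phosphatase that acts on cadherin complexes, at 0.50 ± 0.09, 0.53 ± 0.09 and 0.54 ± 0.09 under exons 1, 7 and 9 (adjusted p = 0.000506, 0.000927 and 0.000437). The replicate block gave 2 of the 8 higher under exon 1.

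Among 7 tested intermediate filament partners of vimentin 1 was called, INA, a neuronal filament gene, with a bound of 1.49-fold above control under exon 1. Its adjusted p by limma was 0.00814, and 0.0582 without experiment 1, with 4 of 6 control arrays above background. The replicate block gave this list 2 higher under exon 1, 1 higher under exon 7 and 1 higher and 1 lower under exon 9. Among 15 tested upstream signals 2 were higher under exon 1, 2 under exon 7 and 1 under exon 9, with 0 lower. With the replicate block 4 were higher and 2 lower under exon 1 and the counts under exons 7 and 9 were the same, and with the column set as a block 2 were higher and 1 lower under exon 1. The receptor gene MET rose by 0.94 ± 0.12, 0.97 ± 0.12 and 0.93 ± 0.12 under exons 1, 7 and 9 (adjusted p = 1.22e-05, 2.54e-05 and 2.53e-05). For the Notch ligand JAG1 the bound under exon 1 was 1.39-fold above control (limma, adjusted p = 0.00169, with 1 of 6 control and 5 of 6 exon 1 arrays above background). EGFR rose by 0.60 ± 0.08 under exon 7 (limma, adjusted p = 9.98e-05, with 0.22 on its other probe). INA and JAG1 were not tested under the stricter detection filter, so their calls depend on the filter.

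**Figure D5:**
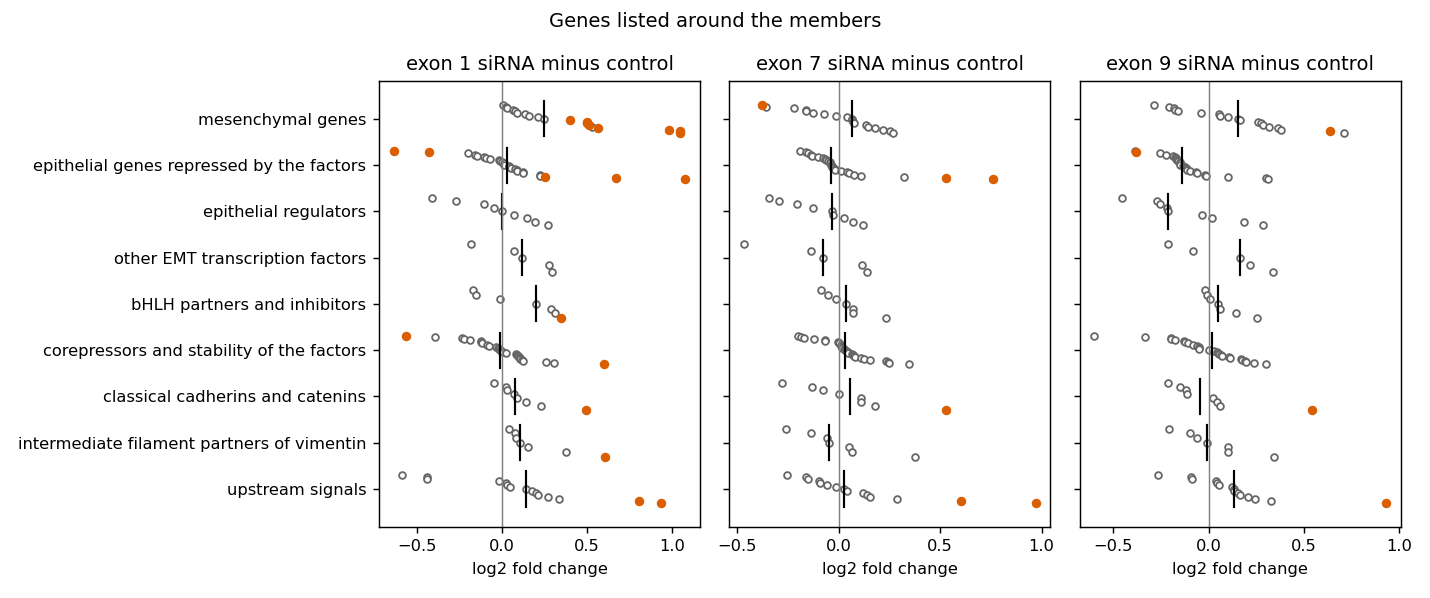
Log2 difference from control of each tested gene in 9 lists of genes around the EMT factors under the exon 1, exon 7 and exon 9 siRNAs, with filled points for genes past an adjusted p of 0.05 and a bar at the list median. The mesenchymal list has 8 filled points under exon 1, all to the right of 0, and 1 under each of the other siRNAs.

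The arrays had medians of 7.41 to 7.74 before normalization (log2), and 34.2% to 39.5% of probes lay above background on each. Of 13 mammary epithelial markers with a named probe, 11 were above background on all 24 arrays, among them KRT5, KRT8, KRT18, KRT19, EPCAM and GATA3, while KRT14 was on 0 and ITGA6 on 4. Of 6 endothelial markers CDH5, VWF, KDR and EMCN were above background on 0 arrays, PECAM1 on 6 and TEK on 3. Of 4 adipocyte markers PLIN1 and FABP4 were on 0 arrays, ADIPOQ on 6 and LEP on 21. Of 7 immune markers with a probe PTPRC, CD3E, LYZ and TYROBP were on 0 arrays, whereas CD14, CD68 and HLA-DRA were on all 24.

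CD14, a receptor for bacterial lipopolysaccharide, fell under the siRNAs under which SNAI2 and TWIST1 rose, with log2 differences of -0.80 ± 0.16 under exon 1 (limma, adjusted p = 0.00174) and -0.72 ± 0.16 under exon 9 (adjusted p = 0.00994). Under exon 7 its difference was -0.30 ± 0.16 (adjusted p = 0.490), and CD68 and HLA-DRA passed no test against control. The summed immune marker level (log2) was 11.26 to 11.76 in control, 10.78 to 11.17 under exon 1, 11.05 to 11.74 under exon 7 and 10.74 to 11.26 under exon 9. The part of these markers in the member results was not tested. CD14 was singled out after its values were seen. No adipocyte marker and no endothelial marker tested was called against control (0 of 2 and 0 of 1 by limma, with 0 at an unadjusted p below 0.05).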

How the data were processed

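Total RNA was labelled with biotin and hybridised to Illumina bead arrays, per the labels' protocols. The deposited table holds log2 intensities without normalization between arrays, and the authors' second table holds normalized log2 intensities, with the scale read from the values. Which tools made either table is not given in the sources used here. Control probes and detection p-values were not used here, so 437 olfactory receptor probes stood in for negative controls. Of 47231 probes 30112 had 1 gene symbol and 8 had several.

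In limma 3.58.1 (R 4.3.3) the values were taken off the log2 scale, corrected with normexp (offset 16), quantile normalized and logged again. A probe was above background on an array at a surrogate detection p below 0.05 and was kept when it was above on at least 6 arrays, which left 19395 probes. The brightest kept probe stood for each of 11029 genes. One mean per group was fitted over 24 arrays with lmFit and eBayes, tests were two-sided, and p-values were adjusted by Benjamini-Hochberg over all genes at 0.05. The model fit was run on simulated data with independent noise on each array and no experiment effect. That run therefore does not show how the fit handles arrays that share an experiment.

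Named genes are the 8 members, CDH1, up to 4 called genes of smallest adjusted p per list and comparison with control, and the 3 genes of highest correlation with each called member. The remaining mesenchymal genes called under exon 1 are named beyond that rule. The members and lists were chosen with earlier results of these data known. Groups came from the labels. Replicates are called separate by the labels, but cultures are not described, so p-values measure the spread between these arrays. The titles tie each number to 1 experiment, and the arrays of 1 number deviated together (lowest pairwise r 0.03, experiment means 0.14 to 0.45; 22 of 24 arrays were closest to their own number). Replicates 1 to 6 are experiments 1, 3, 7, 9, 11 and 5. Alternatives were the replicate number as a block, the column set as a block, both blocks, each set alone, other corrections, normalizations and filters, probes averaged per gene, array weights, the 2 groups alone, and leaving out each array or experiment. Blocks and omissions for lists were added after seeing the data. Genes in groups below background got bounds.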

Additional observations from a re-analysis of the deposited data

How the results depend on the processing

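Calls of the 4 members with signal were recounted under each alternative, and no called difference changed sign. In the first column set alone the calls were 1 for exon 1 against control, 0 for exon 9 against control, 0 for exon 1 against exon 9 and 0 for exon 7 against exon 9. In the second set alone they were 0, 0, 0 and 0, and 1 for exon 1 against exon 7. Each set holds 3 arrays per group, and fewer arrays were fitted. For exon 1 against exon 9 the count of 1 became 0 under median scaling and with the arrays of the 2 groups alone, where the cause was not tested.

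With the replicate block, and with the replicate block and column set block together, exon 7 against control gave 1 call (CDH2) in place of 0. The replicate block changed no other member's call. Leaving out arrays or experiments gave 3 to 3 calls for exon 1 against control and against exon 7, 0 to 1 for exon 1 against exon 9, 0 to 0 for exon 7 against control, 1 to 3 for exon 7 against exon 9 and 1 to 2 for exon 9 against control. The lower ends came from omission of experiments 1, 3, 7 or 11, or of exon 9 replicate 6.

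Over all genes limma called 1107 under exon 1, 212 under exon 7 and 400 under exon 9. The replicate block called 2062, 580 and 1019, and median scaling 749, 124 and 250. Under median scaling the share of calls that were higher moved from 59.4% to 45.2% for exon 7 against control, from 52.0% to 71.7% for exon 1 against exon 7 and from 52.9% to 25.9% for exon 7 against exon 9. Signal over background limits SNAI1, TWIST2, ZEB1 and ZEB2, for which no difference could be read, and VIM, TWIST1 and CDH2 each rest on 1 probe. Of 25 calls on named list genes, 4 were kept in both column sets alone. Under the stricter filter INA, LOX, COL5A2 and JAG1 were not tested.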
